A study of Mus musculus with 8 samples.

Results

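C-type lectin receptors are surface proteins with which myeloid cells bind sugars and lipids on microbes, on other cells and on cell debris. Of the 12393 genes that the arrays measured with a probe set of their own, 10 are described here. These genes were chosen by name as receptors of this family known from macrophages, dendritic cells and granulocytes. The choice was made after earlier results of these data had been seen. They are *Mgl2*, *Clec10a*, *Mrc1*, *Cd209a*, *Clec7a*, *Clec4n*, *Clec4d*, *Clec4e*, *Clec5a* and *Clec4a2*. Every probe set annotated to exactly 1 of these genes was used. This gave 13 probe sets, with 2 each for *Clec4n*, *Clec4e* and *Clec4a2*. A further probe set carries both *Clec4a2* and its neighbour *Clec4b1* and was left out.

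The family falls into groups by what the receptor does after binding. MGL2, MGL1 (encoded by *Clec10a*) and the mannose receptor CD206 (*Mrc1*) take up glycoproteins and are widely used as markers of alternatively activated macrophages, a state driven by interleukin-4. Dectin-1 (*Clec7a*), Dectin-2 (*Clec4n*), MCL (*Clec4d*), Mincle (*Clec4e*) and MDL-1 (*Clec5a*) activate the cell through the kinase Syk, most of them by way of an adaptor chain, and the adaptor Card9 carries the signal of several of them to cytokine genes. DCIR (*Clec4a2*) has the opposite sign, since its cytoplasmic motif recruits the phosphatases SHP-1 and SHP-2.

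The cultures compared held immature myeloid cells (CD11b+Gr-1+) sorted from the spleens of 4 male *Tff2*-/- mice on the C57BL/6 background at 16 weeks of age. The mice had drunk 3% DSS, which injures the colon, for 5 days and were used 14 days after it ended. Each mouse gave cells for a culture with GM-CSF plus 3 μM recombinant mouse TFF2 (rTFF2) and for a culture with GM-CSF alone, both kept for 7 days, and RNA of each of the 8 cultures went to 1 Affymetrix expression array. GM-CSF, a growth factor of myeloid cells, is given as 5 nM in the labels and as 2.5 ng per ml in the methods. Both groups therefore lacked the *Tff2* gene and came from colitic animals, and no wild-type cells, uninjured mice or freshly sorted cells were among these arrays. Values are log2 GCRMA signals, so a difference of 1 is a 2-fold change, and they do not rank one probe set against another. Differences were taken within mice as the rTFF2 culture minus the culture with GM-CSF alone, and a change was called at an adjusted p under 0.05.

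The arrays were alike in scale, with medians of 4.10 to 4.21 and 7286 to 7366 genes above a background level of 3.38, which is the 95th percentile over 39 genes specific to other organs. Of the sort antigens, the gene of CD11b was strong in both groups. *Itgam*, which encodes CD11b, averaged 12.72 ± 0.14 with rTFF2 and 12.35 ± 0.20 with GM-CSF alone (SD, n = 4 mice each). The genes of Ly6G and Ly6C, the antigens behind Gr-1, were not measured here. Of the monocyte genes listed with *Itgam*, *Ccr2* was lower with rTFF2 (log2 difference -1.24, adjusted p = 0.0026). *Cx3cr1* averaged 4.54 with rTFF2 and 4.86 with GM-CSF alone, and *Spn* 3.77 and 4.14, and neither was called. In the control probe sets for *Actb* the excess of the 3′ over the 5′ signal, a sign of RNA quality, was 0.66 to 0.74 with rTFF2 and 0.42 to 0.62 with GM-CSF alone, so it separated the groups. Its part in the results and that of rTFF2 cannot be told apart, also not by the covariate given below.

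Upstream sequence was matched by symbol for 8 of the 10 genes in the RefSeq promoter table of build GRCm38.p6. The 250 bases before the start are printed for *Mrc1*, *Clec4d* and *Clec4e*, which rose. The window of *Mgl2* in that table lies mostly inside the span that RefSeq annotates as the gene, and it is not printed. Capitals mark matches on either strand to GAGGAA, the core of sites of the myeloid factor PU.1, and to TTNNGNAA, a pattern of C/EBP factors.
Mrc1: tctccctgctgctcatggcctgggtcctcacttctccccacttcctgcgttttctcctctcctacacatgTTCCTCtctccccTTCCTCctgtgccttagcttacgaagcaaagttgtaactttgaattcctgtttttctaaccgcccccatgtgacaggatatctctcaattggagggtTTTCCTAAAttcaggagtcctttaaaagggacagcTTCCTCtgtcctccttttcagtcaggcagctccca
Clec4d: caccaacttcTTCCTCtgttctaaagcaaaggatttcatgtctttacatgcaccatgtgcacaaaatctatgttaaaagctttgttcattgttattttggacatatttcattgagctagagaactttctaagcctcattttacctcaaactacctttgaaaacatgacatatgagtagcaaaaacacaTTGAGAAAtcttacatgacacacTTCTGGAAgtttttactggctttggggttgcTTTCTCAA
Clec4e: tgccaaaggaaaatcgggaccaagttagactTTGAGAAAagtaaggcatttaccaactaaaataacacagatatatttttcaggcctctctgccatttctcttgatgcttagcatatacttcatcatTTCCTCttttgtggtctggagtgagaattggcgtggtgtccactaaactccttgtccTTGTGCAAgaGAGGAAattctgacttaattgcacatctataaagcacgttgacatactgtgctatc
The windows lie on the plus strand at chr2:14229164-14229413 for *Mrc1* and chr6:123261857-123262106 for *Clec4d*, and on the minus strand at chr6:123289872-123290121 for *Clec4e*. *Clec4d* had 1 PU.1 core and 3 C/EBP matches, and *Clec4e* had 2 of each. *Mrc1* had 3 PU.1 cores and 2 C/EBP matches that overlap each other. Among all 32851 upstream windows of this length, 23.3% held a PU.1 core and 36.8% a C/EBP match. The pattern of STAT6, the factor of interleukin-4 signalling, which is TTC and GAA with 4 bases between them, was found in 5.85% of all windows, among them those of *Clec7a* and *Clec5a* but none of the printed ones. With 3 bases between them, a pattern of other STAT factors, it was found in 7.02% of all windows and, of the matched genes, only in that of *Clec4a2*. These are matches of letters only, and binding was not measured.

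Of the 13 probe sets, 8 were higher and 3 lower with rTFF2 and 2 did not pass the test, which by gene made 6 higher, 3 lower and 1 with no call. Across the arrays such calls were common. Of all 22626 probe sets tested 25.7% were called in either direction, and of the 12804 with a mean above background 39.2% were called. By gene the share was 27.7%, with 14.5% higher and 13.3% lower. The groups did not overlap in 12 of the 13 probe sets, beside 25.5% of all probe sets. A change over 2-fold was called in 4 of the 13, beside 3.57% of all. Both shares include probe sets at background, whereas 12 of the 13 were above background on all arrays. Since the genes were chosen with earlier results of these data known, these counts are a description only. The lower genes were both galactose lectins and, at background in both groups, *Cd209a*. The higher ones were the mannose receptor, 4 of the 5 activating receptors and the inhibitory DCIR.

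**Figure D1:**
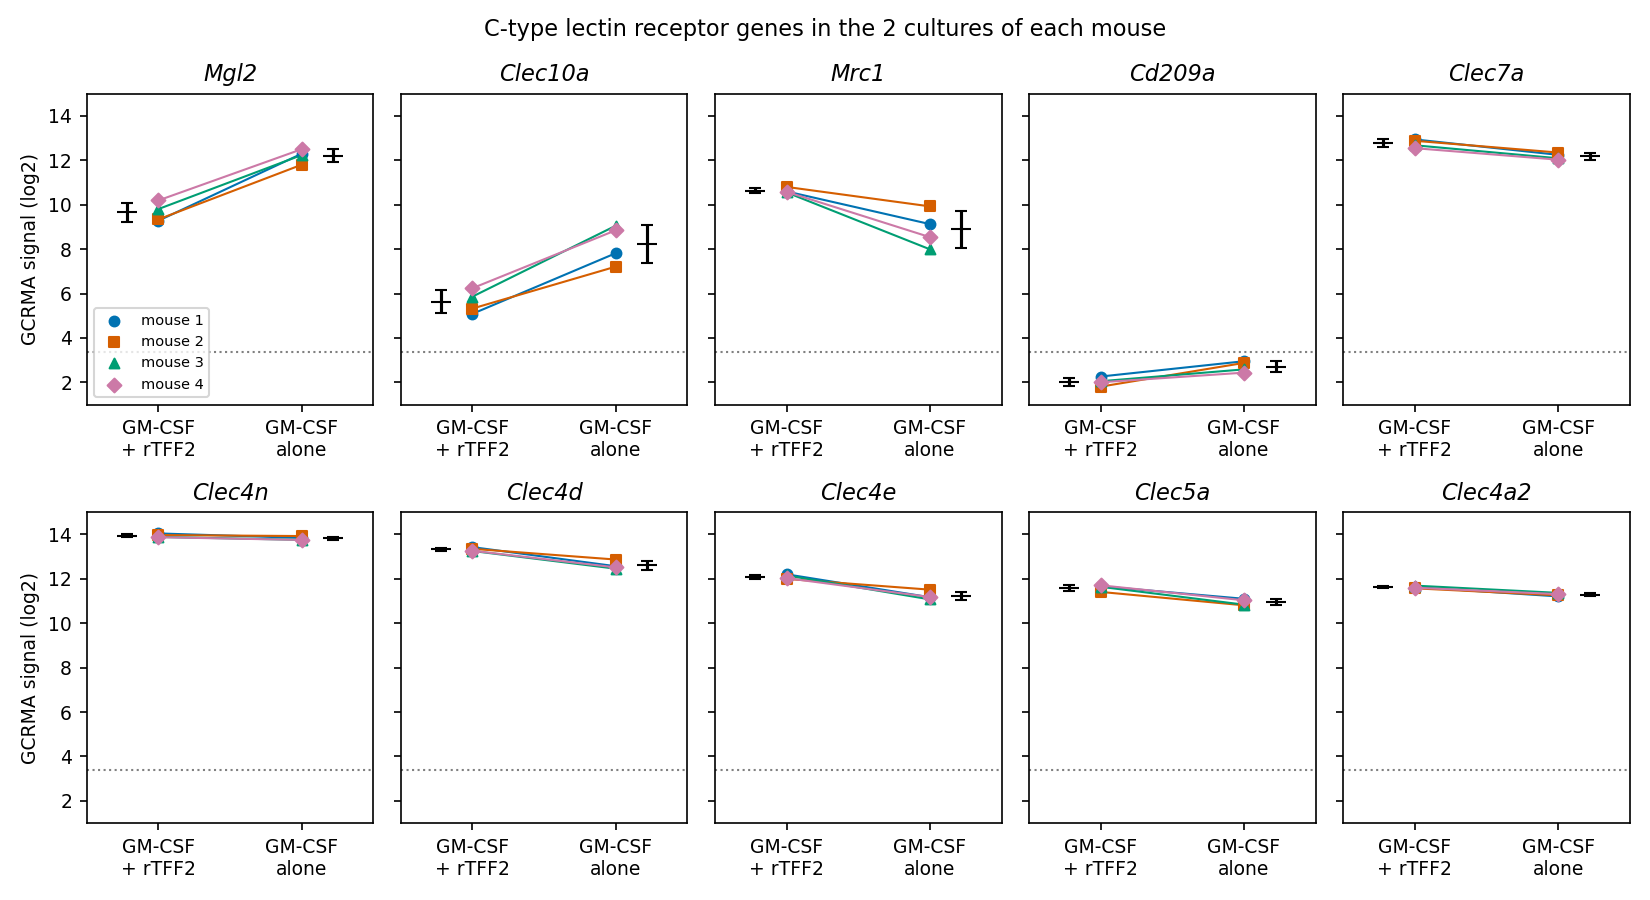
Log2 GCRMA signal (vertical axis) of the brightest probe set of each of the 10 receptor genes, with GM-CSF plus rTFF2 on the left of each panel and GM-CSF alone on the right. Lines join the 2 cultures of a mouse, bars give mean ± SD (n = 4), and the dotted line is the background level of 3.38, under which all 8 values of *Cd209a* lie.

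The macrophage galactose lectins bind galactose and N-acetylgalactosamine on glycoproteins, and their genes are neighbours on chromosome 11. *Mgl2* (probe set 1438467_at) had log2 signals of 9.27, 9.34, 9.80 and 10.19 in the rTFF2 cultures of mice 1 to 4, against 12.29, 11.79, 12.23 and 12.49 in their cultures with GM-CSF alone. The 4 rTFF2 cultures all lay well under the lowest control culture. The log2 difference was -2.55 (SE 0.12, 95% interval -2.84 to -2.27), a 5.86-fold lower signal (adjusted p = 7.7e-05, limma). *Clec10a* (1419605_at) had 5.09, 5.32, 5.86 and 6.24 with rTFF2, against 7.81, 7.21, 9.05 and 8.85 with GM-CSF alone. Its groups did not overlap either, although the control cultures of mice 1 and 2 stood lower than those of mice 3 and 4. The log2 difference was -2.60 (SE 0.19, 95% interval -3.04 to -2.16), 6.07-fold lower, with an adjusted p of 3.1e-04. Within single mice the difference of *Mgl2* was -3.01, -2.46, -2.43 and -2.30, and that of *Clec10a* was -2.73, -1.89, -3.19 and -2.61. Thus both genes fell in 4 of 4 mice. The genes are close copies of each other, and whether the probes of one also detect the other was not tested. In RNA of whole cultures, fewer cells that express a gene and less RNA per cell cannot be told apart.

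*Cd209a*, a mouse counterpart of human DC-SIGN known from dendritic cells and monocytes, was not expressed above background. Its signals (1426172_a_at) were 2.27, 1.81, 2.05 and 2.01 with rTFF2, against 2.95, 2.88, 2.59 and 2.44 with GM-CSF alone. All 8 arrays lay under the background level, and within that range the rTFF2 cultures were the lower ones. The fit called the log2 difference of -0.68 (SE 0.11, adjusted p = 0.0052), but no fold is given, since both groups were at background.

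*Mrc1*, which encodes the endocytic receptor for mannosylated glycoproteins, went the other way. Its signals (1450430_at) were 10.60, 10.80, 10.55 and 10.58 with rTFF2, against 9.12, 9.92, 7.99 and 8.54 with GM-CSF alone. The rTFF2 cultures were nearly equal, with an SD of 0.11, whereas the control cultures spread with an SD of 0.83, and the groups did not overlap. The log2 difference was 1.74 (SE 0.25, 95% interval 1.16 to 2.31), 3.33-fold higher (adjusted p = 0.0029). By mouse it was 1.47, 0.88, 2.56 and 2.04, smallest in mouse 2, whose control culture was the highest, and largest in mouse 3, whose control culture was the lowest. Of the 3 genes named above as markers of alternative activation, then, *Mgl2* and *Clec10a* fell and *Mrc1* rose in each of the 4 mice.

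The activating receptors whose genes lie near each other on chromosome 6 come next. In the order of protein-coding genes on GRCm38.p6, *Clec4b1*, *Clec4a2*, *Clec4b2*, *Clec4n*, *Clec4d* and *Clec4e* follow one another there, and *Clec7a* and *Clec5a* lie elsewhere on the same chromosome. *Clec4e* encodes Mincle, which binds the mycobacterial glycolipid trehalose dimycolate and a protein released by dying cells. Its brighter probe set (1420330_at) had 12.20, 11.99, 12.15 and 12.02 with rTFF2, against 11.17, 11.51, 11.07 and 11.17 with GM-CSF alone. The groups did not overlap, and the control culture of mouse 2 was the highest of its group. The log2 difference was 0.86 (SE 0.11, 95% interval 0.60 to 1.12), 1.82-fold higher (adjusted p = 0.0019). The second probe set (1420331_at) had 9.60, 9.31, 9.61 and 9.38 with rTFF2, against 7.59, 8.40, 7.75 and 8.01 with GM-CSF alone. It gave a larger difference of 1.54 (SE 0.17, adjusted p = 0.0013), 2.91-fold, with the same direction in 4 of 4 mice, so the 2 probe sets differ in size and not in direction.

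*Clec4d* encodes MCL, a partner of Mincle at the cell surface. Its signals (1420804_s_at, a suffix for probes shared between transcripts) were 13.42, 13.34, 13.25 and 13.26 with rTFF2, against 12.56, 12.86, 12.45 and 12.51 with GM-CSF alone. All rTFF2 cultures stood above all control cultures, and the smallest difference was again that of mouse 2. The log2 difference was 0.72 (SE 0.08, 95% interval 0.52 to 0.92), 1.65-fold higher (adjusted p = 0.0014).

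*Clec4n*, which encodes Dectin-2, a receptor for fungal mannans, was the only gene of the 10 with no call. The brighter probe set (1425951_a_at) had 14.04, 13.96, 13.88 and 13.87 with rTFF2, against 13.83, 13.92, 13.75 and 13.74 with GM-CSF alone, with both groups near the top of the scale. The other (1419627_s_at) had 13.41, 13.33, 13.36 and 13.39 with rTFF2, against 13.24, 13.01, 13.24 and 13.27 with GM-CSF alone. The groups overlapped in the first probe set and did not in the second, and both were higher with rTFF2 in 4 of 4 mice. The log2 differences were 0.12 (95% interval -0.03 to 0.28, adjusted p = 0.23) and 0.18 (95% interval 0.01 to 0.35, adjusted p = 0.11). A prior variance that follows the signal and is robust to extreme values brought both under the threshold, at adjusted p of 0.046 and 0.020. The first probe set was at the 99.9th percentile of all mean signals, close to the highest value of any array, 14.64.

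*Clec7a* encodes Dectin-1, the receptor for fungal β-glucan, which carries its own Syk-binding motif. Its signals (1420699_at) were 12.93, 12.87, 12.67 and 12.54 with rTFF2, against 12.24, 12.34, 12.09 and 12.02 with GM-CSF alone. The groups did not overlap. The log2 difference was 0.58 (SE 0.07, 95% interval 0.42 to 0.74), 1.5-fold higher (adjusted p = 0.0015), and it was nearly the same in each mouse, at 0.69, 0.53, 0.58 and 0.52. *Clec5a* encodes MDL-1, a receptor that signals through the adaptors DAP12 and DAP10. Its signals (1421366_at) were 11.66, 11.40, 11.63 and 11.70 with rTFF2, against 11.10, 10.80, 10.83 and 11.03 with GM-CSF alone. Again the rTFF2 cultures were all the higher ones, with a log2 difference of 0.66 (SE 0.07, 95% interval 0.49 to 0.83), 1.58-fold (adjusted p = 0.0011).

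The inhibitory receptor DCIR was measured by 2 probe sets of *Clec4a2*. The brighter one (1422013_at) had 11.62, 11.57, 11.69 and 11.59 with rTFF2, against 11.20, 11.25, 11.36 and 11.31 with GM-CSF alone. The groups stood apart by little, and the log2 difference of 0.34 (SE 0.07, 95% interval 0.18 to 0.49) was the smallest that passed the test among the 13 probe sets (1.26-fold, adjusted p = 0.011). Without mouse 1 it was 0.31 and no longer passed, with an adjusted p of 0.054. The dimmer probe set (1425406_at) had 7.21, 7.11, 7.01 and 7.44 with rTFF2, against 6.01, 6.22, 6.27 and 6.32 with GM-CSF alone, a difference of 0.99 (SE 0.09, 1.98-fold, adjusted p = 6.8e-04). The gene before *Clec4a2* on the chromosome, *Clec4b1*, was no member and was looked at after its values were seen. It had a log2 difference of -1.96 (adjusted p = 0.0056).

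**Figure D2:**
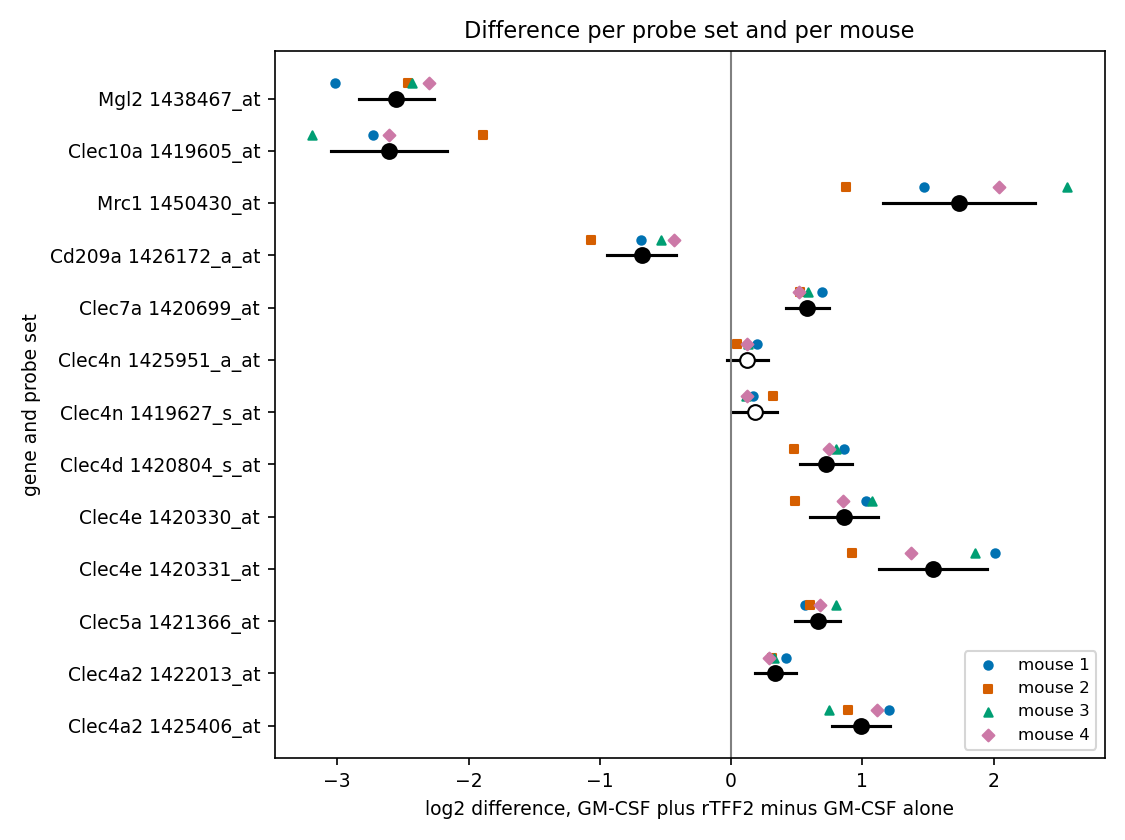
Log2 difference between the rTFF2 culture and the culture with GM-CSF alone (horizontal axis, positive where rTFF2 is higher), for each of the 13 probe sets. Circles with bars give the limma estimate with its 95% interval, filled where the adjusted p was under 0.05, and small symbols give the difference in each of the 4 mice, which all lie on 1 side of 0 for every probe set.

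The calls changed little without the pairing. With the arrays compared as 4 against 4, 21.8% of all probe sets were called, and the members gave the same counts of 6 higher and 3 lower genes. With the *Actb* 3′ minus 5′ difference as a covariate and no replicate block, *Mrc1* had a log2 difference of 2.93 and *Clec10a* one of -3.89, both still called, whereas *Cd209a* (-0.27, adjusted p = 0.38) and the brighter probe set of *Clec4a2* (0.25, adjusted p = 0.21) no longer passed. Since this covariate separates the groups, neither a kept nor a lost call in this fit tells RNA quality and rTFF2 apart. This holds wherever the fit is given below.

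Markers of several other myeloid cells also differed between the groups, in both directions. Of all genes 14.5% were higher and 13.3% lower. The marker lists, too, were chosen with earlier results of these data known. All 14 measured genes of the neutrophil list were higher with rTFF2. Their mean signal per array was 11.34 to 11.61 with rTFF2 and 8.01 to 10.53 with GM-CSF alone. Among 14 dendritic cell and MHC class II genes 11 were lower and 0 higher, with means of 6.85 to 7.30 with rTFF2 and 8.39 to 8.88 with GM-CSF alone. Of 9 genes of basophils and mast cells 7 were higher, with means of 6.20 to 6.88 with rTFF2 and 3.53 to 4.58 with GM-CSF alone, and of 6 eosinophil genes 3 were higher and 1 lower. Macrophage genes split, with 4 higher and 3 lower of 11 and means of 8.80 to 9.21 with rTFF2 and 8.73 to 9.30 with GM-CSF alone. The lower ones were *C1qa*, *C1qb* and *C1qc*, with log2 differences of -2.91, -1.58 and -1.42. The higher ones were *Ms4a7* (2.90), *Mertk* (0.84), *Cd14* (0.83) and *Cd68* (0.60). Other genes of the list were not called. *Adgre1*, which encodes the macrophage antigen F4/80, averaged 11.74 ± 0.05 with rTFF2 and 11.76 ± 0.11 with GM-CSF alone (adjusted p = 0.90). *Csf1r*, which encodes the M-CSF receptor, averaged 12.88 ± 0.10 with rTFF2 and 12.67 ± 0.10 with GM-CSF alone (adjusted p = 0.061). Of T and NK cell genes 10 of 11 lay at background in both groups, and so did 6 of 7 of B cells, 6 of 6 of erythroid cells and 11 of 11 of stroma and endothelium. The T and NK cell gene above background, *Nkg7*, was called higher (adjusted p = 0.0032). It averaged 4.47 with rTFF2 and 2.58, under background, with GM-CSF alone. The part of the neutrophil, dendritic and basophil signals in the receptor differences was not tested.

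Around the receptors, the direct adaptors and the kinase were higher. *Fcer1g*, which encodes the Fc receptor γ-chain that Dectin-2, MCL and Mincle use, had 13.23, 13.29, 13.24 and 13.25 with rTFF2, against 12.92, 12.96, 12.88 and 12.96 with GM-CSF alone. *Tyrobp*, which encodes DAP12, had 13.41, 13.45, 13.33 and 13.44 with rTFF2, against 13.06, 13.05, 13.09 and 13.06 with GM-CSF alone. In neither gene did the groups overlap, and the differences were small, at 0.32 (SE 0.06, adjusted p = 0.011) for *Fcer1g* and 0.35 (SE 0.07, adjusted p = 0.010) for *Tyrobp*. With the *Actb* covariate and no replicate block neither passed, at adjusted p of 0.074 and 0.091. *Hcst*, which encodes DAP10, averaged 6.70 ± 0.13 with rTFF2 and 5.30 ± 0.33 with GM-CSF alone, a difference of 1.40 (SE 0.12, 2.63-fold, adjusted p = 4.7e-04). *Syk* averaged 9.86 ± 0.04 with rTFF2 and 9.15 ± 0.12 with GM-CSF alone, 1.64-fold higher (adjusted p = 0.0011), and its other probe sets gave log2 differences of 0.82 and 0.84. *Card9* was not measured here. The phosphatases that DCIR recruits did not pass the test, with log2 differences of 0.013 for *Ptpn6* (SHP-1, adjusted p = 0.92) and 0.15 for *Ptpn11* (SHP-2, adjusted p = 0.13). With an offset of 32 on the linear signals *Ptpn11* did pass (0.15, adjusted p = 0.013).

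**Figure D3:**
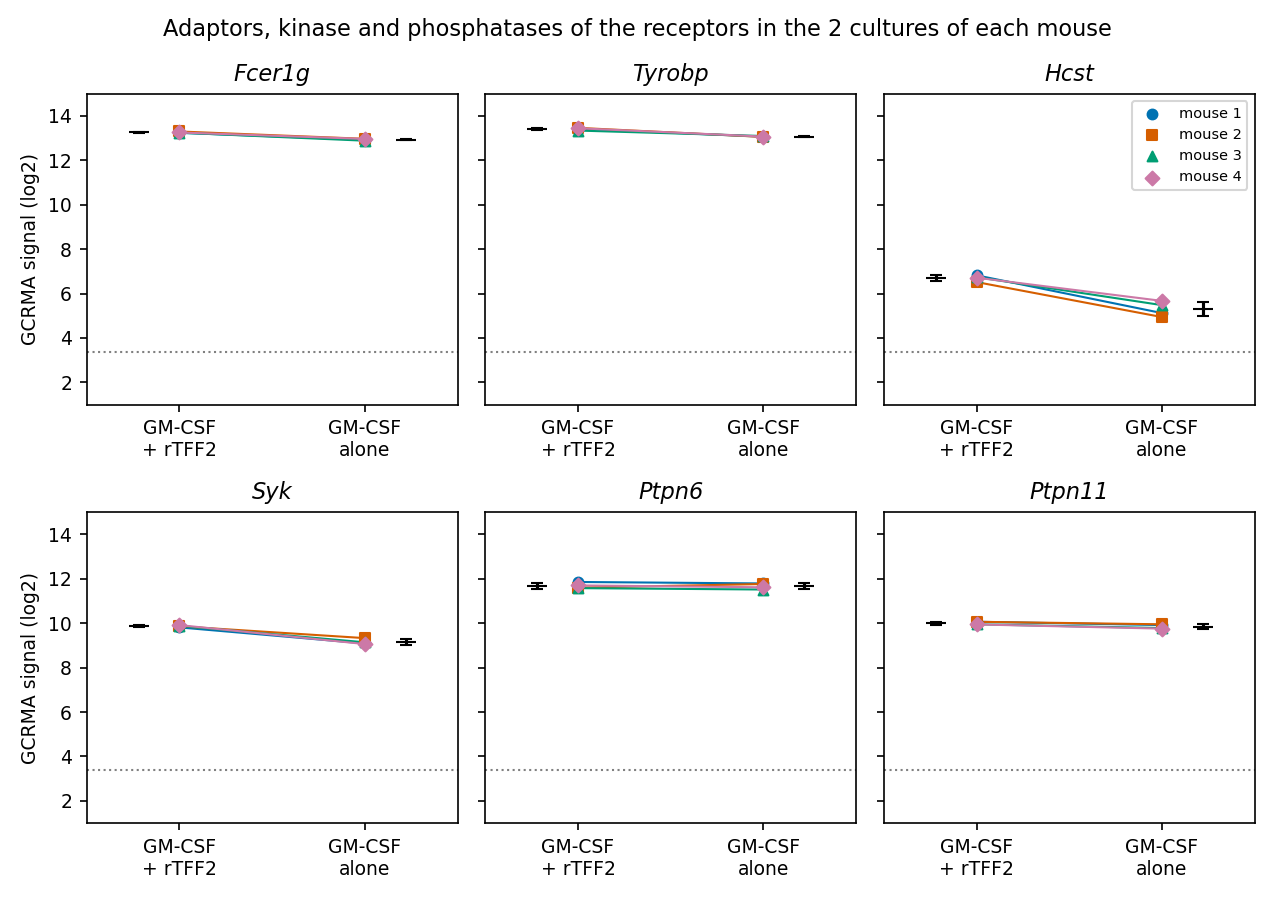
Log2 GCRMA signal (vertical axis) of the adaptor genes *Fcer1g*, *Tyrobp* and *Hcst*, the kinase gene *Syk* and the phosphatase genes *Ptpn6* and *Ptpn11*, with GM-CSF plus rTFF2 on the left of each panel and GM-CSF alone on the right. Lines join the 2 cultures of a mouse, bars give mean ± SD (n = 4) and the dotted line is the background level. *Hcst* shows the largest gap, 1.40, and *Ptpn6* the smallest, 0.013.

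In the wider list of adaptors and the Syk-Card9 pathway, 22 of 29 genes were measured, and 8 were higher and 2 lower. The median log2 difference was 0.14 beside -0.03 over all genes. The share called was 45.5%, beside 27.7% of all genes and 39.2% of all probe sets with a mean above background. The higher ones beyond those named were *Bcl10* (0.30), *Prkcd* (0.26), *Vav1* (0.41) and *Rela* (0.29). The lower ones were *Pik3cg*, a catalytic subunit of phosphoinositide 3-kinase (-0.51, adjusted p = 0.013), and the transcription factor gene *Nfatc1* (-0.34, adjusted p = 0.015). The other *Pik3cg* probe set had -0.18 and did not pass (adjusted p = 0.17), and with the *Actb* covariate and no replicate block neither gene passed (adjusted p = 0.12 and 0.33). Without the pairing 5 genes of the list were higher and 2 lower. *Bcl10*, *Prkcd* and *Vav1* then no longer passed, at adjusted p of 0.061, 0.070 and 0.091. Of 11 measured genes of inhibitory phosphatases and adaptors, 2 were higher and 3 lower, again 45.5% called, with a median of 0.03. The feedback inhibitors of cytokine signalling *Socs1* and *Socs3* rose by 0.80 and 0.81, the latter in its brightest probe set. The other *Socs3* probe sets gave larger differences of 0.89 and 1.84. *Socs1* did not pass with the covariate and no replicate block (adjusted p = 0.15). The largest fall was that of the phosphatase gene *Ptpn22* (-1.33, adjusted p = 5.2e-04).

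Cytokine and early response genes that Syk and Card9 are known to induce gave 8 higher and 0 lower of 19, with a median of 0.17. Of the 19, 7 lay at background in both groups. The share called was 42.1%, beside 27.7% of all genes and 39.2% of all probe sets with a mean above background. *Ptgs2*, which encodes the prostaglandin synthase COX-2, had 10.37, 10.43, 9.92 and 9.65 with rTFF2, against 5.75, 8.59, 5.62 and 6.30 with GM-CSF alone. Every rTFF2 culture was the higher, and the control culture of mouse 2 stood above the other controls (log2 difference 3.53, 11.5-fold, adjusted p = 0.0014). *Il6* was higher by 2.64 (adjusted p = 6.6e-04), *Cxcl1* by 1.99, *Il1b* by 1.52 and *Cxcl2* by 0.68, while *Csf3* was called with both group means under background. Other genes of the list lay above background on all arrays and were not called. Among these were *Tnf* (0.54, adjusted p = 0.15), *Ccl3* (0.17, adjusted p = 0.41) and *Ccl4* (-0.13, adjusted p = 0.73). *Egr2* (-0.08, adjusted p = 0.66) and *Nlrp3* (-0.02, adjusted p = 0.88) were not called either. *Egr1* (0.71, adjusted p = 0.0082) and *Il1rn* (0.40, adjusted p = 0.027) were among the called genes and were higher. With the *Actb* covariate and no replicate block *Il6* had a difference of 0.61 (adjusted p = 0.61) and *Cxcl1* one of 1.37 (adjusted p = 0.051), and neither passed.

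The genes of alternative activation other than the 3 receptors also split, with 6 higher and 8 lower of 19 and a median of 0.23. The share called was 73.7%, beside 27.7% of all genes and 39.2% of all probe sets with a mean above background. The chemokine gene *Ccl17* was 10.1-fold lower (-3.34, adjusted p = 7.8e-05), *Ccl22* was 8.15-fold lower (-3.03), and *Irf4*, a transcription factor gene of this state, had a log2 difference of -1.41. *Il4ra*, the interleukin-4 receptor chain, was higher by 0.69 (adjusted p = 9.1e-04), but by 0.33 with the *Actb* covariate and no replicate block, where it did not pass (adjusted p = 0.49). *Retnla* had 7.67, 5.30, 9.22 and 9.64 with rTFF2, against 5.51, 2.62, 7.09 and 7.29 with GM-CSF alone. The groups overlapped, with mouse 2 lowest in both, and the difference of 2.33 was called with the pairing (adjusted p = 7.4e-05) and not without it (adjusted p = 0.20). With the covariate and no replicate block the difference of *Retnla* was 0.0084 (adjusted p = 0.999). *Arg1* (2.11, adjusted p = 0.18) and *Chil3* (0.42, adjusted p = 0.12) were not called. For *Arg1* the control culture of mouse 2 had 4.30, where those of mice 1, 3 and 4 had 10.95, 12.27 and 12.66.

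**Figure D4:**
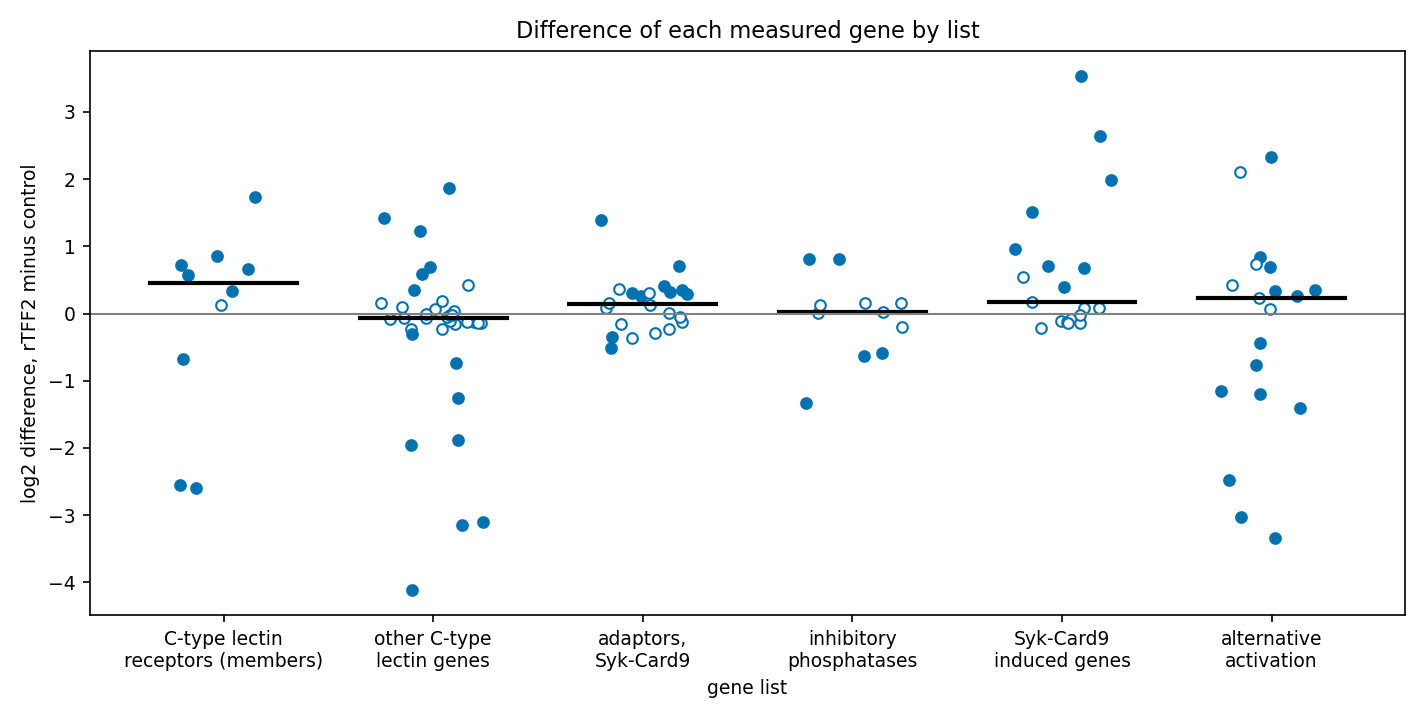
Log2 difference between the rTFF2 culture and the culture with GM-CSF alone (vertical axis, positive where rTFF2 is higher), of each measured gene in the receptor set and in 5 gene lists (horizontal axis). Filled points had an adjusted p under 0.05 and bars are medians, which were 0.46 for the 10 receptors and -0.07, 0.14, 0.03, 0.17 and 0.23 for the lists from left to right.

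Of the other C-type lectin genes, 35 of 44 were measured and 18 of these lay at background in both groups. The list had 6 higher and 8 lower genes and a median of -0.07, where the receptors described above had a median of 0.46. The share called was 40%, beside 27.7% of all genes and 39.2% of all probe sets with a mean above background. *Klrb1b*, which encodes an NK receptor of this fold, had 3.79, 3.64, 4.72 and 4.89 with rTFF2, against 8.58, 7.57, 8.69 and 8.64 with GM-CSF alone. Its groups lay far apart, with a log2 difference of -4.11 (17.3-fold, adjusted p = 5.7e-05). *Cd72*, a lectin-like receptor of B cells with an inhibitory motif, was 8.89-fold lower (-3.15, adjusted p = 5.9e-05). *Cd93*, a receptor of myeloid progenitors and endothelium, was 2.67-fold higher (1.42, adjusted p = 2.3e-04). *Thbd*, which encodes thrombomodulin, was at least 2.22-fold higher, since its mean with GM-CSF alone, 3.31, was under background, and it did not pass with the *Actb* covariate and no replicate block (adjusted p = 0.098).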

How the data were processed

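Expression was measured on Affymetrix mouse arrays in 8 cultures, 4 with GM-CSF plus rTFF2 and 4 with GM-CSF alone. The values used are log2 signals as deposited, which the authors had computed with GCRMA: background is corrected by the base content of the probes, arrays are scaled to 1 distribution and each probe set is summarized. Versions in the submitters' notes are 2.30.0 for GCRMA and 1.36.0 for affy. Scanner files were not used here, and precision is limited by how many arrays there are.

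The fit was made with limma 3.58.1 under R 4.3.3 (lmFit, then eBayes) on 22626 probe sets, leaving out 64 controls, with the mouse as a block and Benjamini-Hochberg adjustment over all of them. Labels give the same animal number to both cultures of a pair, and the methods say that each mouse's cells were split. For mice 1 to 4 the deviations of the paired arrays from their group means had correlations of 0.05, 0.54, 0.32 and 0.39, where those of arrays from different mice had -0.55 to 0.35. The methods name limma without pairing, so that fit was an alternative. Further alternatives were leaving out each mouse, dropping dim probe sets, repeated quantile normalization, median centring, an offset of 32, a trended robust prior, array weights, a threshold of 0.01, gene values averaged over probe sets, and the *Actb* covariate. The fit was tested on simulated data.

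Genes were named through the platform annotation, where 20380 probe sets carried 1 symbol, 691 several and 1555 none. All 10 receptor genes were found in the RefSeq table of GRCm38.p6. A gene in a list was represented by its brightest probe set. The receptors and the lists were chosen with earlier results of these data known, so counts of calls in them are a description. Named were every receptor probe set, up to 6 called genes per list with the smallest adjusted p, and the direct adaptors, kinase and phosphatases. Other genes were named after their values were seen.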

Additional observations from a re-analysis of the deposited data

Results flagged for a closer look

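In 4 of 88 groups of 4 arrays examined among the named genes, 1 array stood far from the other 3, by a gap that took more of the range of the group than Dixon's 95% critical value allows. Chance alone gives about 1 in 20 such groups. All 4 were the culture of mouse 2 with GM-CSF alone. For the second *Clec4n* probe set this array had 13.01 where the other controls had 13.24 to 13.27, a gap of 0.889 of the range. *Cd93* was high in it, at 10.18 against 9.54 to 9.59 (0.927 of the range). *Klrb1b* was low, at 7.57 against 8.58 to 8.69 (0.906 of the range), and so was *Pdcd1lg2*, at 6.17 against 6.80 to 6.90 (0.859 of the range). Without mouse 2 all 9 receptor genes that were called, with *Cd209a* at background among them, remained called in the same direction.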

How the results depend on the processing

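The receptor counts of 6 higher and 3 lower genes stayed within 1 gene under all alternatives. *Mgl2*, *Clec10a*, *Mrc1*, *Clec4d*, *Clec4e*, *Clec5a* and *Clec7a* kept direction and call in each of the 13 alternatives. Leaving out 1 mouse at a time gave log2 differences of -2.63 to -2.40 for *Mgl2*, -2.84 to -2.41 for *Clec10a* and 1.46 to 2.02 for *Mrc1*. An offset of 32 made *Clec10a* -2.03. The brighter *Clec4a2* probe set also missed the threshold of 0.01 (0.011). *Cd209a* could not be tested with the filter on dim probe sets.

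Over all probe sets, 5811 were called, 53.3% of them higher. Median centring gave 6122 calls, 42.3% of them higher, the threshold of 0.01 gave 2906, the *Actb* covariate together with no replicate block 2295, and leaving out mouse 1 or 3 gave 3609 or 3791. The fit with no replicate block gave 4927. Among the lists, it lowered the adaptor and Syk-Card9 count to 5 higher genes, and it changed no call of a receptor. The threshold of 0.01 left that list with 2 higher and 0 lower genes and alternative activation with 3 higher. Repeated quantile normalization and median centring each gave 4 lower adaptor genes, and the offset gave 4 lower among the other C-type lectin genes. With the *Actb* covariate and no replicate block, the other C-type lectins had 2 higher and 5 lower, the adaptors 2 higher and 1 lower, the inhibitory list 1 higher, the induced list 5 higher, and alternative activation 2 higher and 5 lower. Leaving out 1 mouse at a time gave 5 to 6 higher and 1 to 3 lower adaptor genes and 3 to 7 higher genes of alternative activation. *Ptpn6*, which was not called, changed sign with median centring (-0.036) and spanned -0.011 to 0.071 without 1 mouse. The cause of these shifts was not tested.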

Other observations

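The genes whose signal followed those of *Mrc1* and *Clec10a* most closely over the 8 arrays were looked up among 7363 genes above background, by Pearson correlation over all 8 arrays. This is a description, since the arrays share the difference between the groups. For *Mrc1* they were *Il6ra*, which encodes the interleukin-6 receptor (r = 0.990), and *Ppp4r1*, *Emp3*, *Rab5if* and *BC005537* (each r = 0.986). *Il6ra* was 0.52 higher with rTFF2 on the log2 scale (adjusted p = 0.011, limma). For *Clec10a* they were *Fgf13*, *H2az2* and *Slamf9* (each r = 0.994) and *Avpi1* and *Cyp51* (each r = 0.991). Of these *Slamf9* differed most, with a log2 difference of -3.06, followed by *Fgf13* with -2.35, and *Cyp51*, an enzyme gene of cholesterol synthesis, had -1.30.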
